A study of Mus musculus with 72 samples.

Results

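The olfactory epithelium of Fzd1 knockout mice was compared between postnatal day 3 (P3) and the day of birth (P0). The comparison takes in 6 of the 72 RNA-seq libraries of the series, 3 at each age, chosen by the genotype and age in their titles. All 6 come from olfactory epithelium labelled with the genotype Fzd1-lacZ, their titles name them homozygous knockouts, and none received doxycycline (DOX). Libraries of other mice at the same ages served as a reference. The control line carries Omp-IRES-tTA, an allele that adds the tTA transcription factor to the Omp gene, with 3 libraries at P0 and 2 at P3, no DOX. The ectopic line carries Omp-IRES-tTA;tetO-Fzd1-IRES-tdTomato, in which tTA drives Fzd1 in Omp-expressing neurons, with 3 libraries at each age, no DOX. The knockout carries no Omp-IRES-tTA, so its Omp gene is intact, and it has no control litter with the same Omp allele. The sources do not say whether the 3 libraries of a group came from separate animals. The p-values below reflect only how libraries varied within groups. Those of the gene tests draw on the spread within all 25 groups of the 72 libraries, not on the 6 alone unless stated.

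The olfactory epithelium makes new sensory neurons throughout life. Globose basal cells divide, pass through stages marked by the proneural factors Neurog1 and Neurod1, and become immature neurons that carry Gap43 and then mature neurons that carry Omp and 1 odorant receptor each. Sustentacular cells, Bowman gland cells, horizontal basal cells and ciliated cells surround them, and dissected tissue can bring along cartilage, bone, squamous lining and vomeronasal tissue. Fzd1 encodes a Frizzled receptor for Wnt proteins. In bulk tissue, fewer cells of a type and less RNA per cell cannot be told apart.

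Fzd1 itself was low at both ages. Its level was 4.15, 4.95 and 4.78 CPM (read counts scaled to the library total and corrected for library composition) in the 3 P0 libraries and 4.95, 5.64 and 4.93 CPM in the 3 P3 libraries. Control libraries at these ages held between 38.2 and 44.3 CPM. The knockout ages overlapped, with a difference of 0.13 in log2(CPM + 1) and an exact permutation p of 0.2, where 3 against 3 libraries cannot give less than 0.1. One ectopic library, P3 replicate 3, held 43.0 CPM of Fzd1, close to the controls, while the others of its line held 205 to 977 CPM.

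The knockout libraries of the 2 ages differed in make-up before any gene is considered. A family of 13 predicted genes of the Gm10800 type, which rise and fall together across all libraries, took 9.28% to 13.4% of gene counts at P0 and 0.455% to 0.525% at P3. Reads outside genes made up 46.6% to 52.0% of all reads at P0 and 33.1% to 38.0% at P3. The P0 libraries had fewer gene counts (3162669 to 4873610 against 6725049 to 8328452) yet more genes with at least 1 count (33836 to 35229 against 28307 to 29796). In the control and ectopic lines the family took the larger share at P3 instead, from 4.47% to 4.76% in the control and from 1.34% to 22.3% in the ectopic line, against at most 0.678% at P0. Age and make-up cannot be told apart within the 6 libraries. Each title carries a leading number and a longer one, neither of which the labels explain. The leading numbers of the P0 and P3 libraries lie apart in the knockout and in both other lines, so age and this numbering cannot be told apart in any of the 3. The longer numbers of the 6 knockout libraries form 1 run, while those of the other lines come from a different run at each age. The summed level of 4 Y-linked genes was 0.791, 251 and 52.6 CPM at P0 and 10.7, 270 and 290 CPM at P3, with Xist at 1258, 85.5 and 1097 CPM and at 898, 1.34 and 4.28 CPM. P0 replicates 2 and 3 and P3 replicate 1 thus held both kinds of transcript.

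**Figure D1:**
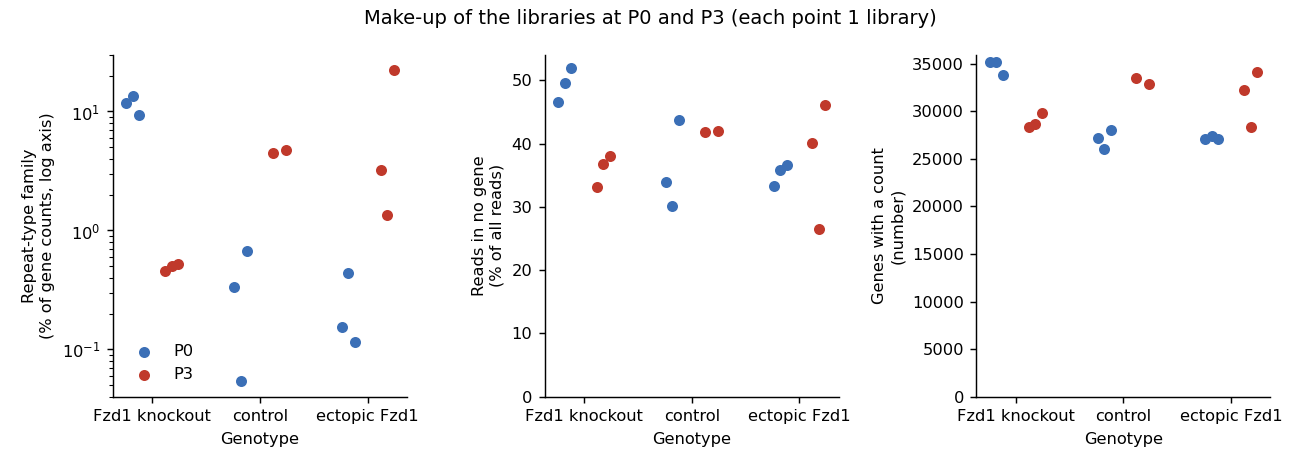
Share of gene counts in the Gm10800-type family (log axis, %), share of reads outside genes (%) and number of genes with a count in each library at P0 (blue) and P3 (red) of the 3 genotypes, 1 point per library. The knockout libraries sit between 9.28% and 13.4% at P0 and between 0.455% and 0.525% at P3 for the family, and the other genotypes run the other way.

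Across 22144 genes tested with edgeR's quasi-likelihood test, 246 (1.11%) passed a Benjamini-Hochberg adjusted p of 0.05, called here higher or lower at P3. There were 132 higher genes (0.596%) and 114 lower genes (0.515%), and the median log2 change of all genes was 0.02. The 2 sets differed in kind. Every one of the 132 higher genes had an average level above 1 on the log2 CPM scale over the 6 libraries, with a median log2 change of 0.89. Of the 114 lower genes, 13 were the whole Gm10800-type family and 72 others had an average level of at most 1 log2 CPM, which leaves 29 lower genes above that level, with a median log2 change of -1.52. The 1734 genes below 0 log2 CPM had a median log2 change of -2.60, 28 lower calls and no higher call, in libraries where more genes had a count at P0. Leaving out 1 library left fewer calls each time: 62, 75 and 11 genes without P0 replicates 1, 2 and 3, and 59, 26 and 40 without P3 replicates 1, 2 and 3. With the share of the Gm10800-type family as a covariate, as planned, 293 genes were called. Of these, 212 were among the 246, and all 246 had the same sign. With the log2 of this share as a covariate 41 genes were called, of which 20 were among the 246, and 232 of the 246 had the same sign. The log2 share was added after the data were seen, and single-gene values below are mostly given with it.

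**Figure D2:**
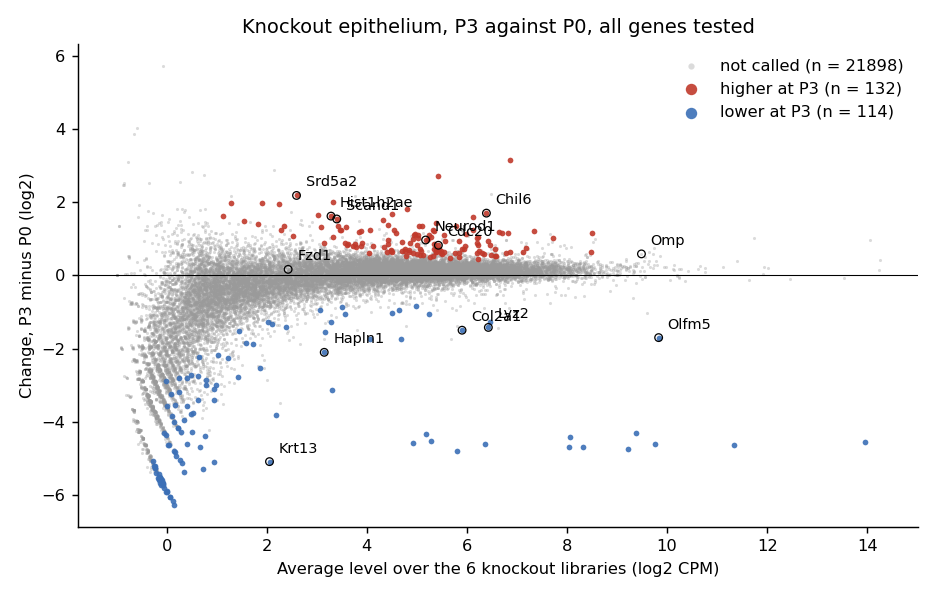
Change from P0 to P3 (log2, vertical) against the average level over the 6 knockout libraries (log2 CPM, horizontal) for all 22144 genes tested, with the 132 higher genes in red and the 114 lower genes in blue. The 13 genes of the Gm10800-type family lie among the low blue points at high average levels, and low-level genes spread downward.

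Neurod1, Hes6, Mybl1 and Ezh2, genes of the neurogenic progenitor stages, rose from P0 to P3. Of 15 genes on this list these 4 were called higher (0.596% of all genes were) and none lower, and the median log2 change was 0.44. Of the 15, 13 were higher in every P3 library than in every P0 library (20.4% of all genes were). Neurod1 and Mybl1 were the 2 still called with the log2 share of the Gm10800-type family as a covariate, where the median was 0.44 too. Neurod1, a basic helix-loop-helix factor of the last progenitor divisions, stood at 29.7, 23.3 and 23.6 CPM at P0 and at 45.7, 56.4 and 48.5 CPM at P3. The 2 ages did not overlap, and Neurod1 was 1.95-fold higher at P3 (log2 change 0.97 ± 0.17 (SE), adjusted p = 0.00198). This call held in each of the 6 fits that left out 1 library and with either measure of make-up as a covariate (log2 change 1.11, adjusted p = 0.00268, for the family's log2 share). Hes6, a Hes-family factor of committed neuronal precursors, had 63.9, 67.8 and 52.9 CPM at P0 and 110, 136 and 107 CPM at P3, each P3 library above each P0 library. Its log2 change was 0.93 ± 0.22 (SE, adjusted p = 0.0220), and it was 0.54 (adjusted p = 0.448) with the log2 share as a covariate.

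Mybl1, a Myb transcription factor, rose from 42.9, 50.6 and 45.6 CPM to 66.1, 83.0 and 82.2 CPM, a log2 change of 0.73 ± 0.18 (SE, adjusted p = 0.0322). With the log2 share as a covariate its change was 1.06 (adjusted p = 0.00343). Ezh2, the methyltransferase of Polycomb complex 2, rose from 66.7, 62.7 and 62.4 CPM to 81.7, 85.7 and 93.0 CPM, a log2 change of 0.44 (adjusted p = 0.0451), and did not pass with that covariate (adjusted p = 0.367). Neurog1 averaged 6.38 CPM at P0 and 13.1 CPM at P3 (adjusted p = 0.0640) and Gadd45g 9.61 and 15.6 CPM (adjusted p = 0.0642), and neither passed. Sox2 and Lgr5, marks of stem and basal cells, averaged 48.1 and 15.4 CPM at P0 and 47.3 and 14.1 CPM at P3. Leaving out 1 library kept between 1 and 3 of the 4 calls. Hes6 lost its call without P0 replicates 1 or 3 or P3 replicates 2 or 3 (adjusted p up to 0.155), Mybl1 kept it only without P3 replicate 1 (up to 0.165), and Ezh2 lost it whichever of the 6 libraries was left out (up to 0.184).

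**Figure D3:**
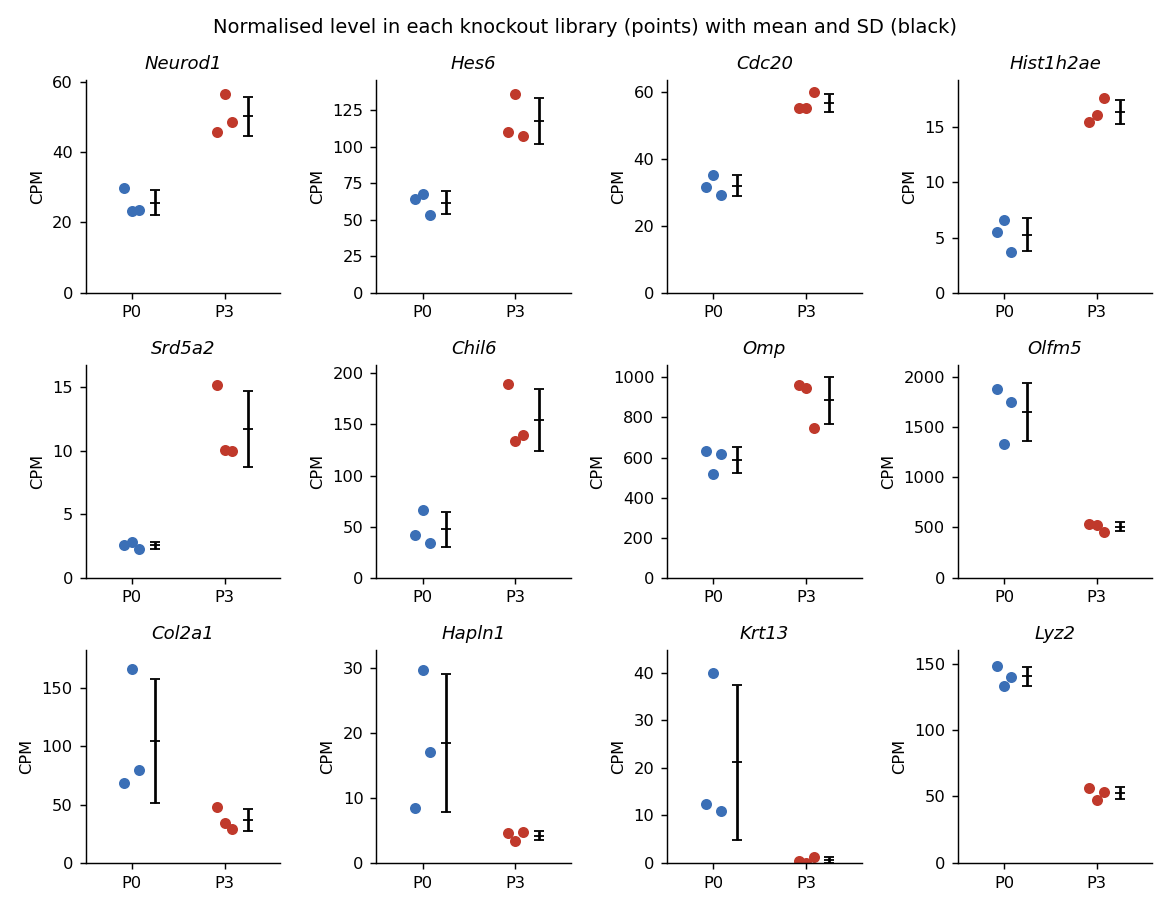
Normalised level (CPM) of 12 genes in each knockout library at P0 (blue) and P3 (red), with the mean and SD of the 3 libraries in black. The ages do not overlap for any of the 12, and Omp, whose P3 libraries hold 747 to 960 CPM, is the 1 of them that was not called.

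Genes of the cell division cycle were among the higher calls. All 25 genes of the cell cycle list were higher in every P3 library than in every P0 library (20.4% of all genes were). Of the 25, 11 were called higher (0.596% of all genes were) and none lower, and the median log2 change was 0.60. The summed level of the 25 genes was 1656, 1677 and 1398 CPM at P0 and 2144, 2350 and 2323 CPM at P3. Cdc20, which activates the anaphase-promoting complex, stood at 31.6, 35.3 and 29.2 CPM at P0 and 55.2, 55.2 and 60.1 CPM at P3. It was 1.77-fold higher at P3 (log2 change 0.82 ± 0.17 (SE), adjusted p = 0.00766). Ccna2, which encodes cyclin A2, was at 74.6, 68.5 and 54.8 CPM and then at 108, 126 and 119 CPM (log2 change 0.83, adjusted p = 0.0137). Cenpa, the histone H3 variant of centromeres, had the smallest p of the list, with 22.4, 24.5 and 19.4 CPM at P0 and 32.6, 38.8 and 36 CPM at P3 (log2 change 0.69, adjusted p = 0.00552).

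Tk1, the thymidine kinase of S phase, and Ccnb1, which encodes cyclin B1, had log2 changes of 0.68 (adjusted p = 0.0223) and 0.71 (adjusted p = 0.0315). The other called members were Cdk1, Ccnb2, Bub1b, Kif11, Aurkb and Top2a, with log2 changes from 0.58 to 0.64. The S phase helicase genes Mcm2 to Mcm7 lay between 0.30 and 0.52 and were not called, and Mki67 went from an average of 351 CPM to 438 CPM (log2 change 0.32, adjusted p = 0.299). The number of called members ran from 0 to 7 over the fits that left out 1 library. Cenpa was lost without P0 replicate 3 or P3 replicate 2 (adjusted p up to 0.0843), Cdc20 without P0 replicates 1 or 3 or P3 replicate 3 (up to 0.0843), and Ccna2 without P0 replicate 3 or P3 replicates 2 or 3 (up to 0.107). Tk1 and Ccnb1 kept the call only without P0 replicate 2 (up to 0.116 and 0.181). A fit of the 6 libraries alone, which called 846 genes higher, called 20 of the 25. With the share of the Gm10800-type family as a covariate Cenpa, Cdc20, Ccna2, Tk1 and Ccnb1 kept their calls (adjusted p from 0.00555 to 0.0375). With its log2 share as a covariate none of the 25 was called, with a median log2 change of 0.41. The part of the library make-up in this group's change was not tested further.

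The promoters of the called cell cycle genes and histone genes are shown because these members moved together. Windows of 250 bases before the RefSeq start (build GRCm38.p6) were searched for 3 motifs. The first was the CCAAT box, which also counts when read on the other strand as ATTGG. The second was the core of the cell cycle homology region, with the letters TTTGAA on one strand. The third was a TATA box with the letters TATAAA, and both strands were searched for all of them, with overlapping matches counted for each motif. Among 32536 such windows of the mouse genome, 33.8% held the CCAAT box, 15.8% the homology core and 12.3% the TATA box. RefSeq windows were found for 9 of the 11 called cell cycle genes, of which 8 held the CCAAT box, 5 the homology core and 0 the TATA box. They were found for 26 of 28 called histone genes, of which 26 held the CCAAT box, 13 the homology core and 12 the TATA box, and some divergent histone pairs share bases of their windows. A match is a run of letters and no measured binding site. The 4 windows below are written 5′ to 3′ on the gene's strand with these motifs in capitals: Cdc20 on the minus strand at chr4:118437344-118437593, Top2a on the minus strand at chr11:99024190-99024439, Hist1h2ai on the plus strand at chr13:21716162-21716411 and Hist1h3i on the minus strand at chr13:21783398-21783647.
Cdc20: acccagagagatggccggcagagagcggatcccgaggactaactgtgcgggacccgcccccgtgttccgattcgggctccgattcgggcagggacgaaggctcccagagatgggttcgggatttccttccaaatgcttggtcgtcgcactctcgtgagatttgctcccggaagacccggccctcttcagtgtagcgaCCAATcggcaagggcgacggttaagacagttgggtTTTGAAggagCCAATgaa
Top2a: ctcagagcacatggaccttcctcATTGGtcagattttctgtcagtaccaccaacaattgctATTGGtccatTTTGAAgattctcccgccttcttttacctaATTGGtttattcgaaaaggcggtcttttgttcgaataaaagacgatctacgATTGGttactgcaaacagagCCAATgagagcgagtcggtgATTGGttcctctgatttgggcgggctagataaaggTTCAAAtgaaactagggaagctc
Hist1h2ai: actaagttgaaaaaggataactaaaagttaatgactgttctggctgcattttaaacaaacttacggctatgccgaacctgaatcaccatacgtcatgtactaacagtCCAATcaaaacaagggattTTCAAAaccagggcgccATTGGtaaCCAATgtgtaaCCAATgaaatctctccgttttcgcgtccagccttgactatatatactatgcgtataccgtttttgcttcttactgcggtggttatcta
Hist1h3i: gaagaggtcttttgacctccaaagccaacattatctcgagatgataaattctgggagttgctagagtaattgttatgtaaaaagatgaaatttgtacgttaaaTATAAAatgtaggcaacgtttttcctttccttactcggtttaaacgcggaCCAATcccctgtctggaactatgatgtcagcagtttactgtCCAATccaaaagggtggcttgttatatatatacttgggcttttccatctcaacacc

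Replication-dependent histone genes, which are transcribed in S phase and whose messages lack a poly(A) tail, made up a larger share of the higher calls. This group, all protein-coding genes with Hist1h to Hist4h symbols, was chosen after its values were seen. Of its 57 tested members 28 were called higher (0.596% of all genes were) and none lower, and the median log2 change was 0.96. Of the 57, 54 were higher in every P3 library than in every P0 library (20.4% of all genes were). The summed level of the 57 genes was 3343, 3085 and 2493 CPM at P0 and 5573, 5452 and 5097 CPM at P3. Hist1h2ae, an H2A gene, had 5.54, 6.59 and 3.66 CPM at P0 and 15.5, 16.1 and 17.7 CPM at P3 and was 3.07-fold higher (log2 change 1.62 ± 0.33 (SE), adjusted p = 0.00676). Hist1h2ai and Hist1h2af, also H2A genes, had log2 changes of 1.36 (adjusted p = 0.00232) and 1.37 (adjusted p = 0.00189). The H3 genes Hist1h3c and Hist1h3i had log2 changes of 1.36 (adjusted p = 0.00598) and 1.34 (adjusted p = 0.00552).

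These genes are near-identical copies, and reads that map to several places are left out of the counts, which makes the single-gene values uncertain. Each of the 5 named histone genes lost its call only without P0 replicate 3, with adjusted p between 0.0536 and 0.0843, and the number of called members ran from 0 to 13 over the fits that left out 1 library. The 5 named histone genes kept their calls with the share of the Gm10800-type family as a covariate (adjusted p from 0.00135 to 0.0102). With its log2 share as a covariate 0 of 57 were called and the median log2 change was 0.51. Small RNA genes by annotation, also grouped after their values were seen, held 9 higher calls and no lower call among 100 tested. Over all genes 0.596% were called higher and 0.515% lower. The small RNA genes had a median log2 change of 0.62. They included Rny3 and Rny1, the Y RNAs of the Ro particle, with log2 changes of 1.59 (adjusted p = 0.00687) and 1.43 (adjusted p = 0.0310). The 5.8S ribosomal RNA gene n-R5-8s1 had 36.4, 11.3 and 8.44 CPM at P0 and 199, 82.5 and 99.6 CPM at P3 (log2 change 2.71, adjusted p = 0.00543), and the library kit removes ribosomal RNA. In the deposited TPM values, which come from a separate estimate, n-R5-8s1 overlapped between the ages (0, 0 and 4.25 at P0, 8.92, 1.77 and 4.18 at P3) and Rny3 was listed at 0 in all 6 libraries. The log2 changes of n-R5-8s1, Rny3 and Rny1 were 1.04, 1.09 and 0.81 with the log2 share as a covariate, and none passed (adjusted p = 0.488, 0.218 and 0.488). Rny3 lost its call without P0 replicate 3 or P3 replicate 3 and n-R5-8s1 without P0 replicate 3 or P3 replicate 1 (adjusted p up to 0.0843 and 0.0823), while Rny1 lost it whichever library was left out (up to 0.132).

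No mature or immature neuron gene was called. Of 20 mature neuron genes, 19 had a fitted change above 0 (11508 of all 22144 genes did), with a median log2 change of 0.29. Higher in every P3 library were 9 of the 20 (20.4% of all genes were). Omp, the olfactory marker protein of mature neurons, had 634, 515 and 616 CPM at P0 and 960, 946 and 747 CPM at P3. The ages did not overlap, but the log2 change of 0.59 ± 0.33 (SE) did not pass (adjusted p = 0.334). In a fit of the 6 libraries alone Omp changed by 0.51 ± 0.11 (SE) and passed (adjusted p = 0.00685). With the log2 share as a covariate Omp changed by 0.35 (adjusted p = 0.841). The fit of the 6 libraries called 846 genes higher, among them 3 of 19 mature and 4 of 16 immature neuron genes. The transduction genes Adcy3, Cnga4 and Ano2, which encode the adenylyl cyclase, a channel subunit and the chloride channel of the odour response, had log2 changes of 0.50, 0.44 and 0.31 (adjusted p = 0.283, 0.320 and 0.463). Among 16 immature neuron genes the median log2 change was 0.19, with Gap43 at 0.08 (adjusted p = 0.895), Dcx at 0.13 (adjusted p = 0.763) and Stmn1 at 0.61 (adjusted p = 0.0879).

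Odorant receptor genes gave no call among 978 tested. Their median log2 change was -0.30, 30 lay higher and 193 lower in every P3 library than in every P0 library (20.4% and 19.1% of all genes did), and 68 had an unadjusted p under 0.05. With the log2 share of the Gm10800-type family as a covariate the median turned to 0.30, again with no call. They took 0.290%, 0.291% and 0.345% of gene counts at P0 and 0.264%, 0.280% and 0.234% at P3. The ages did not overlap, with means of 0.309% ± 0.031 and 0.259% ± 0.023 (SD, n = 3 each, exact permutation p = 0.1, the smallest possible). Without the Gm10800-type family in the total the difference was -0.087 percentage points. The odorant receptor genes had median log2 changes of 0.85 in the control line and 1.24 in the ectopic line, where the family's share rose with age. None of 15 tested genes for odorant receptor transport and choice was called. All 15 had a fitted change above 0 (11508 of all 22144 genes did), from 0.01 for Reep1 to 0.55 for Lhx2. Their median was 0.17, and it was -0.02 with the log2 share as a covariate.

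Srd5a2 and Chil6 were among the largest rises, and both rose in all 3 genotypes. Srd5a2, steroid 5-alpha-reductase type 2, had 2.57, 2.83 and 2.25 CPM at P0 and 15.2, 10.1 and 9.97 CPM at P3. It was 4.54-fold higher at P3 with no overlap (log2 change 2.18 ± 0.37 (SE), adjusted p = 0.00158), and the call held in all 6 fits without 1 library and with the log2 share as a covariate (log2 change 1.91, adjusted p = 0.0176). Chil6, a chitinase-like secreted protein, had 41.7, 66.4 and 34.0 CPM at P0 and 189, 134 and 140 CPM at P3. It was 3.25-fold higher at P3 (log2 change 1.70 ± 0.34 (SE), adjusted p = 0.00552), and lost the call without P0 replicate 3 (adjusted p = 0.0843) and with the log2 share as a covariate (log2 change 1.498, adjusted p = 0.0732). Scand1, a SCAN domain gene, had 5.34, 7.30 and 5.06 CPM at P0 and 14.7, 20.6 and 16.6 CPM at P3 (log2 change 1.54, adjusted p = 0.00166), and kept its call in all 6 fits and with the covariate (adjusted p = 0.0257).

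Of 9 genes of the BPIF family of secreted lipid-binding proteins, Bpifb4 and Bpifb6 were called higher (0.596% of all genes were). Bpifb6 had 170, 313 and 252 CPM at P0 and 588, 554 and 498 CPM at P3 (log2 change 1.16, adjusted p = 0.0468). Bpifb4 had 106, 175 and 167 CPM and then 319, 294 and 301 CPM (log2 change 1.03, adjusted p = 0.0406). Both lost the call whichever of the 6 libraries was left out (adjusted p up to 0.180), and with the log2 share as a covariate, where Bpifb4 changed by 0.58 and Bpifb6 by 0.69 (adjusted p = 0.535 for both). The family's median log2 change was 0.60, and -0.22 with that covariate. Bpifb9b and Bpifb9a, near-identical copies, averaged 12300 and 2442 CPM at P0 and 24120 and 4959 CPM at P3, and did not pass (adjusted p = 0.656 and 0.635), while Bpifa1 averaged 3856 and 3935 CPM. None of 14 sustentacular genes, 30 xenobiotic metabolism genes or 15 Bowman gland and secretion genes was called, with median log2 changes of 0.13, 0.09 and 0.21, which with the covariate were -0.27, -0.26 and -0.18. Cyp2g1, an olfactory cytochrome P450, averaged 1049 CPM at P0 and 1178 CPM at P3.

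Ifi27l2a, Mstn, Mmp9, Car3, Tnc and Car2 were also called higher (0.596% of all genes were). Ifi27l2a, an interferon-inducible gene, had 6.33, 6.36 and 1.97 CPM and then 16.0, 26.5 and 18.6 CPM (log2 change 2.0, adjusted p = 0.0137), but none of 14 interferon response genes was called. Mstn, the growth factor myostatin, had a log2 change of 1.98 (adjusted p = 0.0412), Mmp9, the gelatinase of osteoclasts and neutrophils, 1.52 (adjusted p = 0.0275) and Car3, a carbonic anhydrase, 1.5 (adjusted p = 0.0310). Tnc, the matrix glycoprotein tenascin-C, was the 1 called gene of 20 in the fibrillar matrix list, with 38.0, 46.6 and 43.6 CPM at P0 and 110, 72.5 and 97.0 CPM at P3 (log2 change 1.13, adjusted p = 0.0469). Car2, another carbonic anhydrase and the 1 called gene of 7 on the necklace neuron list, had a log2 change of 0.73 (adjusted p = 0.0457). Ifi27l2a lost its call without P0 replicate 3 or P3 replicate 2, Mstn kept it only without P0 replicate 2 and Mmp9 only without P0 replicate 1 (adjusted p up to 0.107, 0.172 and 0.142). Car3, Tnc and Car2 lost theirs whichever library was left out (up to 0.115, 0.188 and 0.172). None of the 6 passed with the log2 share as a covariate, with adjusted p from 0.182 for Car3 to 0.474 for Tnc.

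Olfm5, a gene of the olfactomedin family, was lower at P3. It had 1880, 1328 and 1745 CPM at P0 and 538, 529 and 460 CPM at P3. The ages were far apart, and Olfm5 was 3.24-fold lower at P3 (log2 change -1.70 ± 0.32 (SE), adjusted p = 0.00285). The call held in all 6 fits without 1 library and with the log2 share as a covariate (log2 change -2.13, adjusted p = 0.000605). In TPM, the deposited unit scaled for transcript length, it was listed at 507, 409 and 605 at P0 and 148, 157 and 133 at P3.

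Lyz2, lysozyme of myeloid cells and secretory epithelium, was the 1 called gene of 17 in the antimicrobial defence list (0.515% of all genes were called lower). It had 148, 133 and 140 CPM at P0 and 56.6, 47.4 and 53.3 CPM at P3 (log2 change -1.42 ± 0.32 (SE), adjusted p = 0.0151), with no overlap, and the call held with the log2 share as a covariate (log2 change -2.16, adjusted p = 0.000258). It kept the call only without P0 replicate 2 among the fits that left out 1 library (adjusted p up to 0.123). The list had a median log2 change of -0.63, and 10 of its 17 genes were lower in every P3 library (19.1% of all genes were). Reg3g, an antibacterial lectin, averaged 1115 CPM at P0 and 549 CPM at P3 (adjusted p = 0.0639), and Lcn2, a neutrophil and epithelial lipocalin, 44.9 and 17.4 CPM (adjusted p = 0.203). Lyz2 also marks macrophages and neutrophils. None of 15 macrophage genes was called, with a median log2 change of 0.45, and Csf1r, the macrophage growth factor receptor, averaged 24.5 and 31.7 CPM. None of 12 neutrophil genes was called, with a median of -1.17 that was -0.18 with the log2 share as a covariate and 0.02 over the 6 genes tested in a fit of the 6 libraries alone. Cd177 averaged 97.6 and 29.3 CPM (adjusted p = 0.0663).

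Dhrs9 and Chad were lower too. Dhrs9, a retinol dehydrogenase, had 35.8, 25.9 and 28.4 CPM at P0 and 8.12, 7.66 and 11.1 CPM at P3 (log2 change -1.74, adjusted p = 0.0223). Chad, the matrix protein chondroadherin, had 12.5, 15.3 and 16.0 CPM and then 5.84, 3.63 and 5.48 CPM (log2 change -1.53, adjusted p = 0.00623). Both held with the log2 share as a covariate (adjusted p = 0.00504 and 0.00120). Chad lost its call without P0 replicate 3 or P3 replicate 2 (adjusted p up to 0.0869), and Dhrs9 kept it only without P0 replicate 2 (up to 0.149). At lower levels the named falls were Sult1c2, a sulfotransferase (log2 change -2.16, adjusted p = 0.0408), Rhoh, a GTPase of blood cells (-2.77, adjusted p = 0.0231), Lipm, an epidermal lipase (-1.85, adjusted p = 0.0231), Serpinb12 (-2.25, adjusted p = 0.0356) and Sh3gl3, an endophilin (-1.52, adjusted p = 0.0332). Serpinb12 and Sh3gl3 lost the call whichever library was left out, Sult1c2 kept it only without P0 replicate 2, and Rhoh and Lipm only without P0 replicate 1 (adjusted p up to 0.188). With the log2 share as a covariate none of these 5 passed, and Rhoh had a log2 change of -0.55.

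Cartilage genes gave 4 lower calls (0.515% of all genes were called lower) and no higher call among 16 tested, with a median log2 change of -0.88. Col2a1, the collagen of cartilage, had 68.4, 166 and 79.6 CPM at P0 and 47.6, 34.7 and 29.2 CPM at P3 (log2 change -1.5 ± 0.26 (SE), adjusted p = 0.00166). Hapln1, the link protein that ties aggrecan to hyaluronan, had 8.50, 29.7 and 17.2 CPM and then 4.57, 3.36 and 4.71 CPM (log2 change -2.10 ± 0.35 (SE), adjusted p = 0.00106). P0 replicate 2 was the highest library for both. Matn1, a cartilage matrilin, and Snorc, a chondrocyte proteoglycan, averaged 4.26 and 2.34 CPM at P0 and 0.379 and 0.134 CPM at P3 (adjusted p = 0.00552 and 0.0356).

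Without P0 replicate 2, Col2a1 had a log2 change of -0.96 (adjusted p = 0.0828) and Hapln1 -1.51 (adjusted p = 0.0521), while each kept its call when any other library was left out and with the log2 share as a covariate (adjusted p = 0.0269 and 0.00749). Matn1 lost its call without P0 replicate 2 or P3 replicate 3 (adjusted p up to 0.0852) and Snorc without any 1 of the 6 (up to 0.168), and neither passed with the covariate (adjusted p = 0.156 and 0.343). The summed level of the 16 genes was 384, 795 and 456 CPM at P0 and 485, 400 and 394 CPM at P3, so the sums overlapped. Acan and Col11a1 averaged 49.4 and 155 CPM at P0 and 33.6 and 177 CPM at P3 and did not pass, and Col10a1, the collagen of hypertrophic cartilage, averaged 14.2 and 30.9 CPM (adjusted p = 0.0785). None of 13 bone genes was called, and their median log2 change was 0.67. Alpl, the alkaline phosphatase of mineralising cells, averaged 20.3 and 42.7 CPM (adjusted p = 0.0517).

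The keratins Krt13, Krt6a and Krt4 of squamous epithelium were called lower at P3. They were the 3 calls among 12 genes on the keratinised epithelium list (0.515% of all genes were called lower). Of the 12, 8 were lower in every P3 library (19.1% of all genes were), and the median log2 change was -1.65. A fit with the log2 share of the Gm10800-type family as a covariate called 1 of the 3 keratins and gave a median of -0.50 for the list. Krt13, a keratin of non-cornified squamous lining, had 12.5, 40.0 and 11 CPM at P0 and 0.508, 0 and 1.21 CPM at P3 (log2 change -5.08 ± 1.02 (SE), adjusted p = 0.00552). Krt6a had 25.7, 46.4 and 15.8 CPM and then 2.92, 1.88 and 5.15 CPM (log2 change -3.12, adjusted p = 0.0440). Krt4, the partner of Krt13, had 37.2, 70.4 and 33.7 CPM and then 13.7, 14.2 and 14.7 CPM (log2 change -1.73, adjusted p = 0.0310).

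Spink5, a protease inhibitor of squamous epithelium, had 5.14, 12.3 and 7.03 CPM at P0 and 0.634, 0.672 and 2.74 CPM at P3 (log2 change -2.52, adjusted p = 0.0326). P0 replicate 2 held the highest level of all 4 genes, as it did for cartilage, and the summed keratinised list was 91.8, 187 and 91.7 CPM at P0 and 25.3, 23.5 and 35.3 CPM at P3. Krt13 lost its call without P0 replicate 2 or P3 replicate 2 (adjusted p up to 0.0792), Spink5 without P0 replicates 2 or 3 or P3 replicates 1 or 2 (up to 0.177), and Krt6a and Krt4 whichever library was left out (up to 0.195). With the log2 share as a covariate Krt4 passed (adjusted p = 0.0270), while Krt13, with a log2 change of -3.70, Krt6a and Spink5 did not (adjusted p = 0.225, 0.373 and 0.238). The horizontal basal cell genes, which include the keratins Krt5, Krt14 and Krt15, gave no call among 11, with a median log2 change of -0.29 and Krt15 at -0.88 (adjusted p = 0.226). None of 16 multiciliated cell genes, 13 ensheathing glia genes or 12 endothelial genes was called, with median log2 changes of -0.19, 0.09 and 0.07. Lower in every P3 library were 7 of the 11 horizontal basal cell genes and 7 of the 16 multiciliated cell genes (19.1% of all genes were). A fit of the 6 libraries alone, with 1017 lower calls, called 6 of these 11 and 8 of these 16 lower, and 0 of the 12 endothelial genes.

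**Figure D4:**
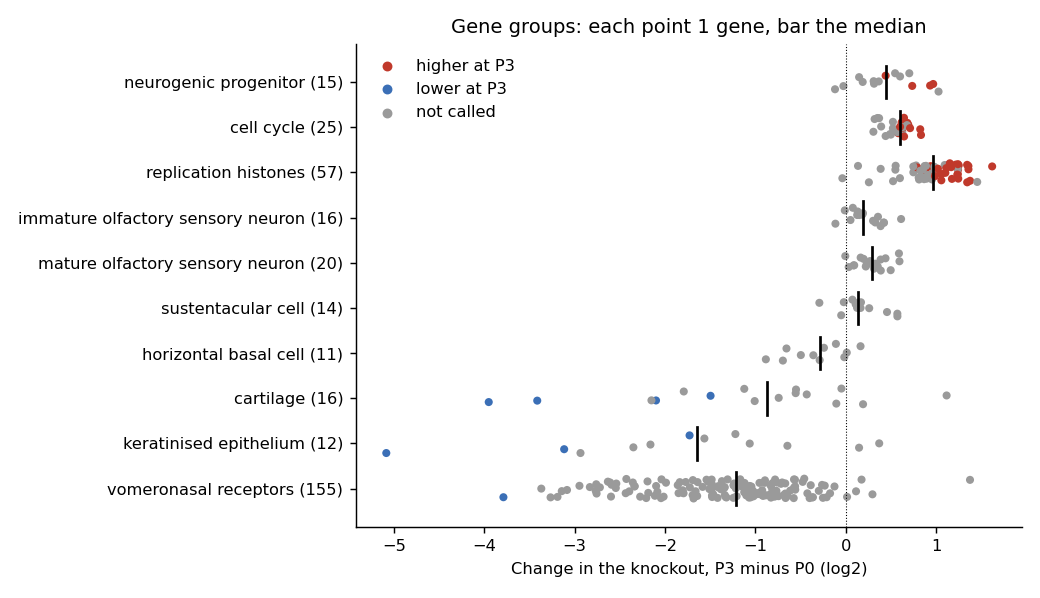
Change from P0 to P3 in the knockout (log2) for each tested member of 10 gene groups, 1 point per gene, with higher calls in red, lower calls in blue, genes not called in grey and the median as a bar. The 57 histone genes (median 0.96) and 25 cell cycle genes (median 0.60) lie to the right of 0, and most keratinised, cartilage and vomeronasal receptor genes lie to the left.

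Some lower calls were of genes scarcely present at either age. Vmn2r4, a vomeronasal receptor gene, had 2.37, 2.83 and 2.53 CPM at P0 and 0.127, 0 and 0.329 CPM at P3 (log2 change -3.79, adjusted p = 0.0484). It was the 1 called gene of 155 vomeronasal receptors, a share close to the 0.515% of all genes called lower. Of the 155, 75 were lower in every P3 library (19.1% of all genes were). The median log2 change of the 155 was -1.22. This median turned to 0.91 with the log2 share as a covariate. Their summed level was 446, 404 and 474 CPM at P0 and 245, 37.6 and 297 CPM at P3. Myh4, a fast myosin of skeletal muscle, had 2.18, 2.36 and 2.53 CPM and then 0, 0.134 and 0 CPM (log2 change -5.13, adjusted p = 0.0390), 1 call among 13 muscle genes. Gad1, the enzyme that makes the transmitter GABA, had 1.58, 1.18 and 1.97 CPM and then 0.254, 0 and 0.329 CPM (log2 change -2.80, adjusted p = 0.0484), 1 call among 12 olfactory bulb and brain genes. These 3 lost their calls whichever library was left out (adjusted p up to 0.210), and with the log2 share as a covariate their changes were -0.63, -1.27 and -1.11, none of which passed. In the control line all 3 had fitted changes above 0, Myh4 from no count at P0. The share of the Gm10800-type family also rose with age in that line, and its part in these changes was not tested.

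The Wnt pathway, in which Fzd1 is a receptor, gave a single call. None of 14 Wnt receptor genes was called, with a median log2 change of -0.0011 and changes from -0.81 for Fzd10 to 0.24 for Fzd8. Fzd3, a Frizzled of the planar polarity pathway, averaged 222 CPM at P0 and 241 CPM at P3. None of 12 beta-catenin targets was called, with Axin2, a feedback inhibitor, at 37.8 and 34.7 CPM. Among 18 Wnt ligands and secreted inhibitors Wnt11, a ligand of non-canonical signalling, was called lower (0.515% of all genes were). It had 18.4, 15.3 and 15.2 CPM at P0 and 9.64, 6.72 and 7.23 CPM at P3 (log2 change -1.06 ± 0.26 (SE), adjusted p = 0.0326), with no overlap, and lost the call whichever library was left out (adjusted p up to 0.174) and with the log2 share as a covariate (log2 change -1.08, adjusted p = 0.150).

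The same ages in the other genotypes gave many more calls. The control line had 2800 calls (12.6%) and the ectopic line 2623 (11.8%). Across the 22144 genes the knockout's change correlated with the control's at Pearson r = -0.56 and with the ectopic line's at r = -0.62. Across the 17034 genes above 1 log2 CPM the values were -0.04 and -0.13. Genes share libraries and are not replicates, so these r describe the libraries, in which the family's share moved in opposite directions. Of the 132 genes higher in the knockout, 102 had a fitted change above 0 in the control and 120 in the ectopic line. Of the 72 lower genes at low level outside the family, 6 and 4 had a change below 0 there, against 22 and 19 of the 29 at higher levels.

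A set of 18 genes passed in the same direction in all 3 genotypes, singled out after their values were seen. They were 11 of the 132 higher genes (8.33%) and 11 of the 399 higher in both other lines (2.76%), which are 1.8% of all genes, and 7 of the 114 lower genes (6.14%) and 7 of the 748 lower in both (0.936%), which are 3.38% of all genes. The higher ones were Srd5a2, Chil6, Neurod1, Mybl1, Mfng, a Notch-modifying glycosyltransferase, Scg2, a granin of secretory granules, Car3 and the mitotic genes Cenpf, Kif4, Bub1b and Plk4. Neurod1 changed by 0.97 in the knockout, 1.04 in the control and 0.56 in the ectopic line on the log2 scale, and Srd5a2 by 2.18, 2.13 and 1.88. The lower ones were Lyz2, Wnt11, Sult1c2, Cldn2, a pore-forming tight junction protein, Cxcl17, a mucosal chemokine, the cytokine gene Flt3l and Ect2l. Lyz2 changed by -1.42, -1.95 and -1.09, and Wnt11 by -1.06, -1.43 and -0.76. In the knockout Mfng changed by 0.84 (adjusted p = 0.00442) and Scg2 by 0.89 (adjusted p = 0.0231). Of the 18, Srd5a2 and Neurod1 kept the knockout call whichever of its libraries was left out.

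**Figure D5:**
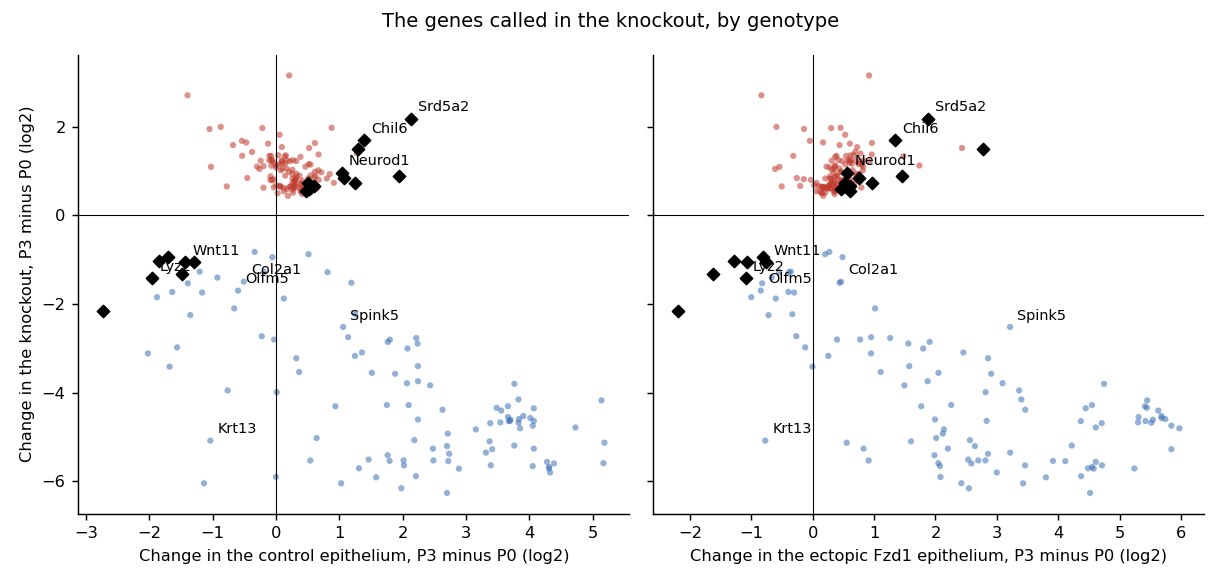
Change from P0 to P3 in the knockout (log2, vertical) against the change in the control line (left) and the ectopic line (right) for the 246 genes called in the knockout. Higher genes are red, lower genes blue, and the 18 genes called in the same direction in all 3 genotypes are black diamonds. Most of the lower genes at the bottom lie right of 0, where the other line changed upward.

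The difference between genotypes in the change from P0 to P3 was tested in the same fit. It passed for 2212 genes (9.99%) against the control and 2623 (11.8%) against the ectopic line. Omp differed from both: it changed by 0.59 in the knockout, by -3.02 in the control and by -3.22 in the ectopic line, whose Omp gene carries the tTA insertion. The difference was 3.61 (adjusted p = 0.000106) against the control and 3.81 (adjusted p = 3.47e-06) against the ectopic line. Control Omp was 287, 185 and 207 CPM at P0 and 27.8 and 27.9 CPM at P3, below every knockout library. The list of 20 mature neuron genes did not fall with Omp in these lines. Its median log2 change was 0.58 in the control and 0.11 in the ectopic line. The titles of the control libraries read wt at P0 and ctrl at P3. Whether the 2 ages of these lines share all alleles was not tested, so their Omp change cannot be read as an effect of age alone. The numbers in the titles lie apart between the ages in all 3 lines, the knockout included, so age and numbering cannot be told apart on either side of these differences. Without control P3 replicate 1 the count against the control was 194, and without ectopic P3 replicate 3 the count against the ectopic line was 550.

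The cell cycle and histone groups had smaller medians in the other lines. The median log2 change of the 25 cell cycle genes was 0.60 in the knockout, 0.20 in the control and 0.25 in the ectopic line, and that of the 57 histone genes 0.96, -0.04 and 0.42. Levels at P0 differed as well. Tk1 stood at 15.5 to 18.2 CPM in the knockout at P0. It stood at 27.1 to 32.8 CPM in the control P0 libraries and 25.3 to 30.0 CPM in the ectopic ones. The named histone genes, Tk1, Cdc20 and Ccna2 were lower in every knockout P0 library than in every P0 library of the other lines. Cenpa and Ccnb1 overlapped with other lines, and Neurod1 was not lower. The part of the P0 libraries' make-up in this was not tested. Among the named genes of these groups and Neurod1, the difference itself passed against both lines for Tk1 (adjusted p = 0.0498 and 0.0409), against the control alone for the histone genes Hist1h2ae, Hist1h2ai, Hist1h3i and Hist1h3c (adjusted p = 0.0175, 0.0172, 0.0171 and 0.0451), and against neither for Hist1h2af (adjusted p = 0.182 and 0.452), Cdc20 (0.182 and 0.147), Ccna2 (0.158 and 0.142), Ccnb1 (0.570 and 0.954), Cenpa (0.344 and 0.142) or Neurod1 (0.896 and 0.289). Col2a1 and Hapln1 differed from the ectopic line (adjusted p = 0.00110 and 0.000198), where they changed by 0.46 and 1.02, and not from the control at this threshold (adjusted p = 0.0816 and 0.0637).

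The later ages of the knockout place these values, as a description with no test. The longer title numbers of P7 replicates 2 and 3 and of all P10 and P14 knockout libraries come from another run. That of P7 replicate 1 lies closer to those of P0 and P3. Later age and this numbering thus cannot be told apart at P10 and P14. Neurod1 stood at 45.7 to 56.4 CPM at P3, 27.3 to 40.9 CPM at P7, 14.5 to 26.7 CPM at P10 and 14.2 to 20.5 CPM at P14, so P3 held its highest libraries. Cdc20 was highest at P3 as well, with 26.5 to 36.8 CPM at P7 and 19.6 to 29.9 CPM at P14. Srd5a2 lay at 16.5 to 36.3 CPM at P7 and 26.9 to 35.2 CPM at P14, above its P3 range of 9.97 to 15.2 CPM, and Chil6 at 254 to 437 CPM and 434 to 668 CPM. Olfm5 lay at 245 to 377 CPM at P7 and 158 to 208 CPM at P14, below P3. Lyz2 had 25.5 to 51.8 CPM at P7 and 50.5 to 119 CPM at P14, so the P14 range overlapped P3. The Gm10800-type family took 1.26% to 36.8% of gene counts at P7 and 3.32% to 73.8% at P10, and its part in these later values was not tested.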

How the data were processed

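RNA from olfactory epithelium was extracted with TRIzol and sequenced with the TruSeq Stranded Total RNA kit with Ribo-Zero Gold, per the labels' protocols. The authors used bcl2fastq 2.18, STAR 2.6.1c and RSEM with build mm10, per the submitters' processing notes. Neither the annotation release nor whether counting used strand is given in the sources used here, so overlapping and antisense genes may share counts. The authors deposited gene counts and TPM values for 72 libraries, which include these 6.

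The counts of all 72 libraries in 25 groups were fitted together in edgeR 4.0.16 (R 4.3.3) with filterByExpr, TMM factors and the quasi-likelihood test. Genes with a Benjamini-Hochberg adjusted p below 0.05 over 22144 tested genes were called. CPM values are scaled by the TMM factors. Reads in no gene, in several genes or at several places of the genome, and unmapped reads, were left out of library sizes. They made up the rest of each library beside the 24.0% to 45.0% in genes. Of 54532 gene IDs, 54495 matched GENCODE release M21, which gave symbols and types. Differences between genotypes are interaction terms of the same fit. The share of odorant receptor counts and the Fzd1 level were tested by exact 2-sided permutation. DESeq2 1.42.0, limma 3.58.1 on log2(TPM + 1) and log2(TPM + 0.1), other filters, size factors, subsets of libraries and covariates were alternatives. The steps were tested on simulated counts. Promoter windows come from RefSeq.

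Named were Fzd1 and Omp, the 15 largest rises and 15 largest falls among called genes above 1 log2 CPM whose ages did not overlap and whose symbol is no predicted, clone, pseudogene or odorant receptor name, up to 5 called members of each list, and up to 6 genes of each difference between genotypes. The members, the 45 gene lists and the comparison were chosen with earlier results of these data known. Replicates of 1 age differed by more than counting noise in every pair (chi-square per degree of freedom 2.74 to 4.32).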

Additional observations from a re-analysis of the deposited data

Results flagged for a closer look

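The change from P0 to P3 in the knockout differed from that of another genotype, by a test of the difference itself, most clearly for 9 named genes. Omp differed from the control by 3.61 (adjusted p = 0.000106) and from the ectopic line by 3.81 (adjusted p = 3.47e-06) on the log2 scale. Adamts15, a matrix protease, changed by 0.13 in the knockout and by -1.82 and -1.84 in the control and ectopic lines, differences of 1.95 (adjusted p = 8.88e-05) and 1.97 (adjusted p = 3.47e-06). Trim12a, a TRIM gene with close copies, was listed at 4.5 to 9.42 CPM in every knockout library. Control and ectopic libraries held 4.10 to 15.6 CPM of it at P0 and had no count at P3. The fitted differences of 8.38 (adjusted p = 0.000187) and 8.42 (adjusted p = 9.58e-06) for Trim12a rest on those P3 groups at 0 and are no measured folds. Against the control, the chaperone gene Hsph1 differed by 1.59 (adjusted p = 0.000269), the splicing factor gene Tra2a by 1.23 (adjusted p = 0.000303) and the dynein gene Wdr78 by 1.47 (adjusted p = 0.000303). Against the ectopic line, Spink5 differed by -5.73 (adjusted p = 9.12e-05), the long noncoding gene Cep83os by 1.84 (adjusted p = 9.12e-05) and Asprv1, an epidermal protease, by -3.98 (adjusted p = 0.000162). Of the 9, Spink5 alone was called in the knockout itself. In all 3 lines the 2 ages differ in the numbers of their titles and in make-up, and their part in these differences cannot be told apart from age.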

How the results depend on the processing

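No paired analysis was possible because the titles carry no replicate numbers. The count of 246 calls (132 higher, 114 lower) was within 1.5 times of itself with DESeq2 (291), DESeq2's size factors (204), a mean CPM of at least 1 (206), without the Gm10800-type family (284), with its share as a covariate (293, with 182 lower) and, added after seeing the data, with the Y-linked level as a covariate (320, with 179 lower). It was 1534 (367 higher, 1167 lower) with no filter on low counts, 1863 (846 and 1017) in the 6 libraries alone, 4 (1 and 3) in the 15 knockout libraries, whose later ages include the libraries richest in the family, 63 (11 and 52) by limma on log2(TPM + 1) and 21 (8 and 13) on log2(TPM + 0.1). Among alternatives added after seeing the data it was 41 (14 and 27) with the family's log2 share and 52 (31 and 21) with reads outside genes as a covariate, 2700 (1117 and 1583) without libraries above 25% in the family and 606 (202 and 404) in the 17 libraries at these ages. The 6 libraries alone tested 195 of the 246 and called all 195 in the same direction. As a covariate the family's share kept 212, reads outside genes 35 and the Y-linked level 243. The cause of these moves was not tested. Leaving out 1 library gave 11 to 75 calls (5 to 60 higher, 4 to 21 lower), 194 to 1959 differences from the control and 550 to 3576 from the ectopic line, and the latter was 1564 with the 4 groups alone.

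The odorant receptor share differed by -0.0309 to -0.0594 percentage points and Fzd1 by 0.073 to 0.18 in log2(CPM + 1) over the same omissions. Signs turned for 3 genes near 0: Trim12a (-0.0142 in the 6 libraries, -0.16 to 0.3052 with 1 library left out, the lowest without P0 replicate 3), Hsph1 (-0.0080 in the 6, -0.0024 in the 15, -0.12 and -0.0811 with the family's log2 share and reads outside genes, -0.0602 to 0.1667 with 1 left out, the lowest without P3 replicate 3) and Adamts15 (-0.0044 to 0.2298 with 1 left out, the lowest without P3 replicate 3). The depth of the 6 libraries, 3162669 to 8328452 gene counts, limits genes at low level.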
